A study of Piaractus mesopotamicus and Piaractus mesopotamicus x Colossoma macropomum and Colossoma macropomum with 15 samples.

Results

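The miRNAs described here are those of white blood cells, miR-142a, miR-150, miR-155 and miR-223, read from small RNA libraries of the fast muscle of farmed South American fish. Every locus of the count table named for one of these 4 miRNAs was taken, whichever arm of the precursor it came from. That gave 6 loci of 595, which hold 5 mature miRNAs of 369 names: dre-miR-142a-5p, dre-miR-142a-3p, dre-miR-150, dre-miR-155 and dre-miR-223, written below without the zebrafish prefix. The fish were untreated early juveniles of 3 genotypes: pacu (PC, *Piaractus mesopotamicus*), tambaqui (TQ, *Colossoma macropomum*) and tambacu (TC), the hybrid of a tambaqui female and a pacu male. There were 5 libraries per genotype, 1 per fish, and all fish lived in aerated tanks with monitored water and gave epaxial muscle. The paper does not state whether genotypes shared tanks, and an effect of tank was not tested. Libraries are called by genotype and the number in their label. The comparisons asked how the hybrid differed from each parent and how the parents differed from each other.

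miRNAs are short RNAs that guide the silencing complex to messenger RNAs, mainly by pairing of the seed, bases 2 to 8. miR-142 is made in blood cells of most lineages in mammals, and its 3p arm is needed for blood stem cell formation in zebrafish. miR-150 is abundant in mature lymphocytes of mammals and represses the transcription factor c-Myb. miR-223 is abundant in neutrophils and other myeloid cells of mammals and zebrafish, and in the mouse it restrains granulocyte production through Mef2c. miR-155 is made from the BIC transcript when lymphocytes and macrophages of mammals are activated. Blood and resident leukocytes are part of any muscle sample. The paper cites earlier work on fish skeletal muscle in which miR-155 had a possible role in muscle cells. Whether muscle fibres made any of the members was not tested. In bulk muscle, fewer cells of a type and less RNA per cell cannot be told apart.

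The 5 mature sequences are shown because each member was counted on its *Danio rerio* sequence, placed on the zebrafish precursor. They are written 5′ to 3′ in DNA letters with the seed in capitals.
miR-142a-5p: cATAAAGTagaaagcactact
miR-142a-3p: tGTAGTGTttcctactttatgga
miR-150: tCTCCCAAtccttgtaccagtg
miR-155: tTAATGCTaatcgtgatagggg
miR-223: tGTCAGTTtgtcaaatacccc
The members were 21 to 23 nt long and had 5 distinct seeds, so no seed was shared among them. The seed of miR-155 was also that of miR-2194 in the reference. Genome coordinates of the miRNA genes were not used here. Whether pacu and tambaqui carry the same mature sequences was not tested, so a difference in sequence and a difference in level cannot be told apart between species.

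miR-142a-3p was placed on 2 precursors, on dre-mir-142a at bases 55 to 77 of 91 and on dre-mir-142b at bases 52 to 74 of 86. Both precursors are shown because they carry the same 3p arm but different 5p arms, with the annotated arms in capitals.
dre-mir-142a: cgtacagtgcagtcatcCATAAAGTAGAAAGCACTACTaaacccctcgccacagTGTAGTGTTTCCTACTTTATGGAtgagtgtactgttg
dre-mir-142b: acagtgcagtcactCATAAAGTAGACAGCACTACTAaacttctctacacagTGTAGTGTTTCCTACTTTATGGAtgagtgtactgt
The copies of miR-142a-3p had the same count in 15 of 15 fish, and they were counted as 1 member. The reads do not tell which precursor this arm came from. The 5p arms differ in sequence: miR-142b-5p has the same seed as miR-142a-5p and differs from it by A12C, counted from the 5′ end of miR-142a-5p. miR-142a-5p had 29001 counts over all fish, and miR-142b-5p had 0. A count of 0 allows up to 3 counts per fish, or 0.463 to 1.33 CPM (counts scaled to a library of 1e6) depending on depth, which covers counting error only. Reads of this locus lost in counting or through a difference in sequence between species were not tested for, so its 0 does not settle the source of the 3p arm.

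The libraries held 2422820 counts (TC fish 8) to 5669084 counts (TC fish 5). Tests covered the loci whose normalized count averaged 10 or more, 199 loci of 152 mature names, and all 6 member loci were among them. Levels are CPM over library sizes scaled by TMM, which sets the bulk of the loci equal between fish. The label of muscle was checked against marker miRNAs of striated muscle, which do not tell fast from slow fibres. miR-1 and miR-206-3p were counted in 45509 and 9671 reads in all, and the striated muscle names summed to 601 to 1427 CPM per fish. In each genotype this sum was below that of the red cell miRNAs, given later, and the share of muscle in the samples was not tested. The slow muscle miRNA miR-499 was counted too, at levels given below, and the share of fast fibres was not tested. Of 5 striated muscle names, miR-133c-3p had 124 reads in all. miR-133a-3p and miR-133b-3p were listed at 0, as were all 4 endothelial miR-126 names. Reads of these names lost in counting or through a difference in sequence were not tested for. Their 0 is therefore not read as absence, and the striated muscle sum may be too low.

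miR-142a-5p was the most abundant member and miR-155 the least. By mean CPM over all fish, miR-142a-5p ranked 49 among the 152 mature names, miR-150 ranked 76, miR-223 ranked 92 and miR-142a-3p ranked 93, with miR-155 well below them at 4.84 CPM. miR-223 and miR-142a-3p, neighbours in this order at 54.1 and 52.9 CPM, overlapped in every genotype. miR-142a-5p took 0.0486% of all counts and miR-155 took 0.000466%. The spread between fish of 1 genotype also differed among members. The mean coefficient of variation was 16.5% for miR-142a-5p, 16.6% for miR-150 and 22.6% for miR-142a-3p, beside a median of 22.6% over the 199 loci. It was 32.0% for miR-223 and 37.7% for miR-155, so these members varied more between fish than the median locus. miR-155 rested on 7 to 43 reads per fish, and its values are the least precise of the 5.

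**Figure D1:**
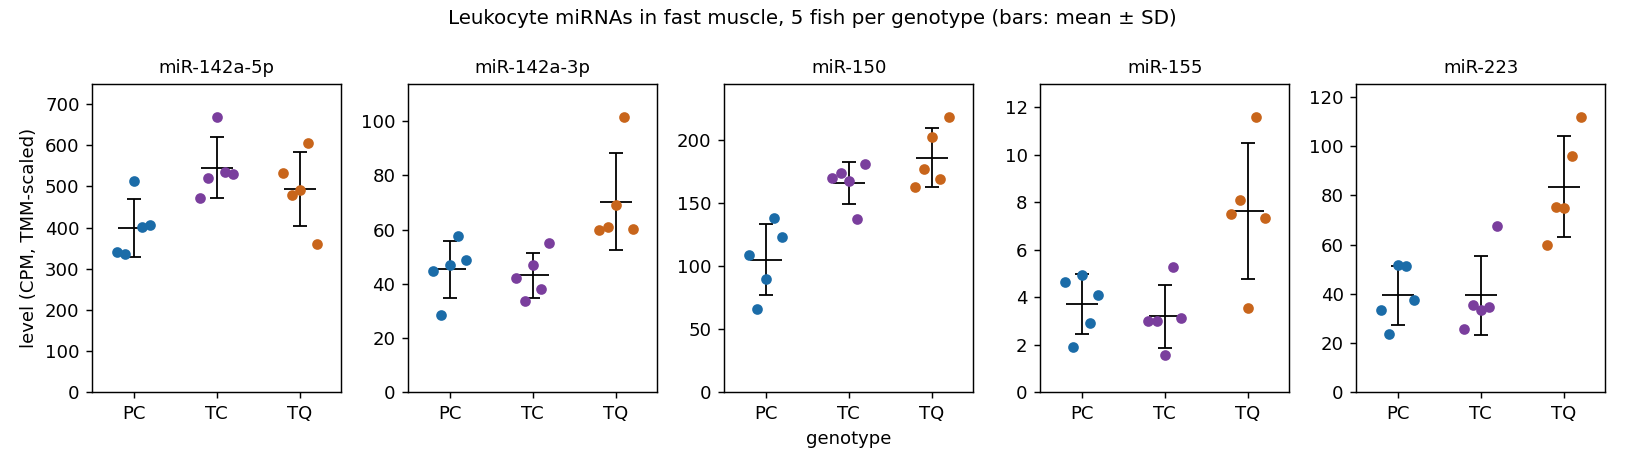
Level (CPM over TMM-scaled library sizes) of the 5 leukocyte miRNAs in each fish, by genotype, with a point per fish and bars for mean ± SD over 5 fish. miR-223 lies at 59.7 CPM or more in every TQ fish, miR-150 is at most 138 CPM in every PC fish, and the y axes differ in scale.

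miR-142a-5p, the arm of miR-142 that was counted most, was called in no comparison of genotypes. In PC fish 3, 4, 5, 8 and 10 it stood at 336, 512, 401, 406 and 342 CPM. In TC fish 3, 4, 5, 6 and 8 it stood at 471, 519, 669, 536 and 530 CPM. In TQ fish 1, 2, 3, 6 and 8 it stood at 532, 478, 491, 605 and 359 CPM. The 3 ranges overlapped, with PC lowest on average at 399 ± 71.0 CPM, TQ at 493 ± 89.5 and TC highest at 545 ± 73.9 (SD, n = 5 each). In TC vs. PC the log2FC was 0.45 (SE 0.15, 95% interval 0.12 to 0.78, edgeR padj = 0.0781), in TC vs. TQ it was 0.15 (interval -0.18 to 0.47, edgeR padj = 0.471), and in PC vs. TQ it was -0.30 (interval -0.63 to 0.02, edgeR padj = 0.170).

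miR-142a-3p, the other arm, was higher in every TQ fish than in any fish of the other genotypes. PC fish 3, 4, 5, 8 and 10 held 28.6, 47.0, 57.5, 48.7 and 44.7 CPM, and TC fish 3, 4, 5, 6 and 8 held 42.1, 33.7, 46.9, 38.1 and 55.0 CPM. TQ fish 1, 2, 3, 6 and 8 held 59.7, 61.0, 68.9, 102 and 60.02 CPM. The lowest TQ fish stood just above the highest PC fish, while PC and TC covered much the same range. Means were 45.3 ± 10.5 CPM in PC, 43.2 ± 8.23 in TC and 70.2 ± 17.9 in TQ (SD, n = 5 each). The log2FC of TC vs. TQ was -0.70 (SE 0.21, edgeR padj = 0.0262), past the adjusted p but short of the log2FC minimum of 0.75, so it was not called. It was called without TC fish 8 (log2FC -0.80, edgeR padj = 0.0182) or without TQ fish 1 (log2FC -0.76, edgeR padj = 0.0248). The adjusted p itself was not passed without TC fish 4 (edgeR padj = 0.0549), TC fish 6 (edgeR padj = 0.0510) or TQ fish 6, the highest (log2FC -0.53, edgeR padj = 0.0675). In PC vs. TQ the log2FC was -0.63 (edgeR padj = 0.0526) and in TC vs. PC it was -0.08 (interval -0.52 to 0.37, edgeR padj = 0.828).

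miR-150, the lymphocyte miRNA, was lower in pacu than in tambaqui. Its level in PC fish 3, 4, 5, 8 and 10 was 65.9, 90.05, 138, 123 and 109 CPM, and in TC fish 3, 4, 5, 6 and 8 it was 169.8, 174, 168, 138 and 181 CPM. In TQ fish 1, 2, 3, 6 and 8 it was 163, 178, 203, 169 and 219 CPM. No PC fish reached the lowest TQ fish, and TC lay near TQ, apart from PC fish 5 and TC fish 6, which met at 138 CPM. Means were 105 ± 28.3 CPM in PC, 166 ± 16.8 in TC and 186 ± 23.6 in TQ (SD, n = 5 each). The PC vs. TQ difference was called (log2FC -0.82, SE 0.18, 1.77-fold lower, edgeR padj = 0.00494). Without PC fish 3, the lowest of all, the log2FC was -0.69 (edgeR padj = 0.00896), under the log2FC minimum, and the call was lost. TC vs. PC passed the adjusted p with a log2FC of 0.66 (SE 0.18, edgeR padj = 0.0222) but not the minimum, and without PC fish 5 it was called at 0.83 (edgeR padj = 0.00981). The adjusted p was not passed without PC fish 10 (edgeR padj = 0.0501) or TC fish 5 (edgeR padj = 0.0574), with no minimum mean count (edgeR padj = 0.0746) or with total counts as library sizes (edgeR padj = 0.367). In TC vs. TQ the log2FC was -0.17 (interval -0.53 to 0.20, edgeR padj = 0.471).

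miR-155, the miRNA of activated lymphocytes and macrophages, was lower in the hybrid than in tambaqui. Its counts were low: PC fish 3, 4, 5, 8 and 10 had 1.92, 4.94, 2.90, 4.11 and 4.65 CPM, and TC fish 3, 4, 5, 6 and 8 had 3.01, 3.003, 1.58, 5.26 and 3.11 CPM. TQ fish 1, 2, 3, 6 and 8 had 7.51, 8.11, 3.54, 11.6 and 7.32 CPM. TQ fish 3 lay among the PC and TC fish, and the other 4 TQ fish stood above all of them. Means were 3.71 ± 1.27 CPM in PC, 3.19 ± 1.32 in TC and 7.62 ± 2.86 in TQ (SD, n = 5 each). TC vs. TQ was called (log2FC -1.26, SE 0.35, 2.402-fold lower, edgeR padj = 0.0151). PC vs. TQ was not, at a log2FC of -1.03 (SE 0.34, edgeR padj = 0.0526). It was called when PC fish 4 (log2FC -1.23, edgeR padj = 0.0278), TC fish 5 (-1.02, edgeR padj = 0.0440), TC fish 6 (-1.03, edgeR padj = 0.0442) or TQ fish 3 (-1.20, edgeR padj = 0.0212) was left out. In TC vs. PC the log2FC was -0.24 (interval -1.01 to 0.53, edgeR padj = 0.796).

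miR-223, the neutrophil miRNA, was lower in both pacu and the hybrid than in tambaqui. The PC fish 3, 4, 5, 8 and 10 held 23.6, 51.6, 51.2, 37.3 and 33.6 CPM, and the TC fish 3, 4, 5, 6 and 8 held 25.8, 35.6, 33.4, 34.5 and 67.4 CPM. The TQ fish 1, 2, 3, 6 and 8 held 59.7, 75.3, 74.7, 96.0 and 112 CPM. All TQ fish were above all PC fish, and TC fish 8 was the only TC fish to reach the TQ range. Means were 39.5 ± 12.0 CPM in PC, 39.3 ± 16.2 in TC and 83.6 ± 20.5 in TQ (SD, n = 5 each). The log2FC of TC vs. TQ was -1.10 (SE 0.27, 2.14-fold lower, edgeR padj = 0.0111) and that of PC vs. TQ was -1.08 (SE 0.27, 2.11-fold lower, edgeR padj = 0.0136), and both were called. Both calls held when each of the 15 fish was left out in turn, with a log2FC of -1.37 to -0.93 in TC vs. TQ and of -1.25 to -0.93 in PC vs. TQ. In TC vs. PC the log2FC was -0.02 (interval -0.60 to 0.55, edgeR padj = 0.963).

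Counted over members, all 4 calls were in comparisons with tambaqui. Members are counted as mature names, while the shares beside them are over 199 loci, where copies of a name count separately. In TC vs. TQ, miR-155 and miR-223 were downregulated, 2 of 5 members, where 14.6% of all loci were called and 6.53% were called lower. In PC vs. TQ, miR-150 and miR-223 were downregulated, again 2 of 5, where 10.6% of all loci were called and 5.03% were called lower. In TC vs. PC no member was called by edgeR or DESeq2, 2 of 5 had an unadjusted p under 0.05 in edgeR, and 3.52% of all loci were called. Ranges lay fully below TQ for miR-142a-3p in TC, where 9.55% of loci did so, and for miR-142a-3p, miR-150 and miR-223 in PC, where 8.04% did. The median log2FC of the 5 members was -0.02 in TC vs. PC, -0.70 in TC vs. TQ and -0.82 in PC vs. TQ, beside 0.02, 0.03 and 0.00 over all loci tested. These contrasts share fish, so that each TQ fish enters both comparisons with TQ. With library sizes left at total counts, the median of all loci moved to -0.10, -0.38 and -0.25, and miR-142a-5p went from 0.15 to -0.20 in TC vs. TQ, called under neither scaling.

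**Figure D2:**
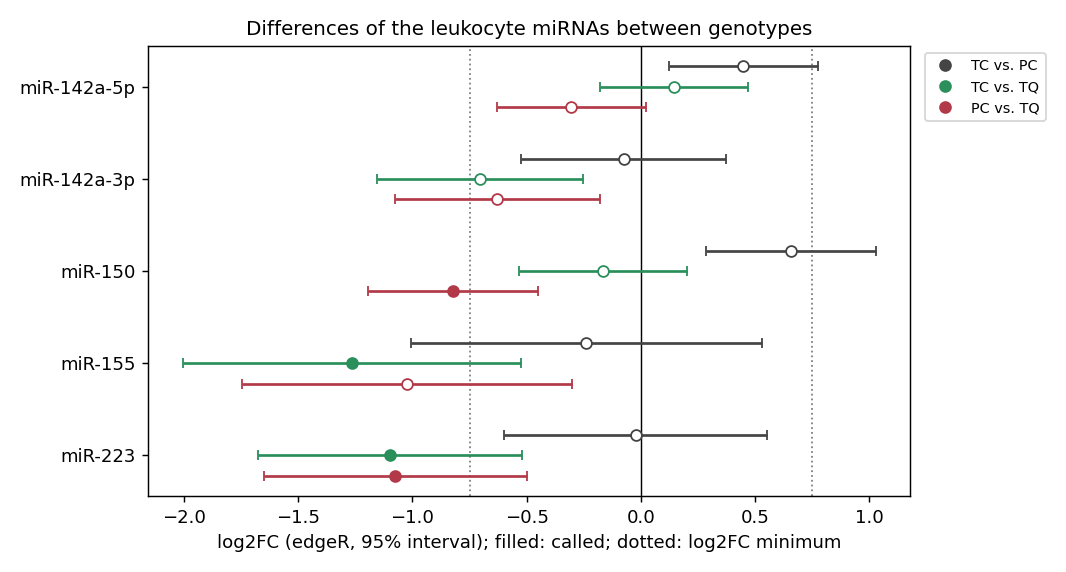
log2FC (x axis) of each leukocyte miRNA between each pair of genotypes with the 95% interval of edgeR, filled where called, dotted lines at the log2FC minimum of 0.75. The filled points are miR-150 in PC vs. TQ (-0.82), miR-155 in TC vs. TQ (-1.26) and miR-223 in both comparisons with TQ (-1.10 and -1.08).

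The hybrid was also set against the mean of its parents on the log2 scale. No member was called by edgeR or DESeq2 there, 3 of 5 had an unadjusted p under 0.05 in edgeR, and 3.02% of all loci were called. The log2FC was 0.30 for miR-142a-5p (edgeR padj = 0.132) and 0.25 for miR-150 (edgeR padj = 0.247). It was -0.39 for miR-142a-3p (edgeR padj = 0.160), -0.75 for miR-155 (edgeR padj = 0.121) and -0.56 for miR-223 (edgeR padj = 0.125). miR-223 was called without TC fish 8, at -0.84 (edgeR padj = 0.0248). In TC, miR-150 stood near its TQ level while miR-223 and miR-155 stood near their PC level, by the values above, and their ratios were tested next.

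A ratio of counts within 1 fish does not depend on how libraries are scaled. Here it sets the myeloid member against the lymphoid member. A loss of reads at either locus through a difference in sequence between species would still shift it, which was not tested. miR-223 over miR-150 was lowest in the hybrid: the mean log2 ratio was -2.15 ± 0.48 in TC, -1.42 ± 0.37 in PC and -1.18 ± 0.28 in TQ (SD, n = 5 each). In TC the ratio ran from -2.71 to -1.43, in PC from -1.72 to -0.80 and in TQ from -1.45 to -0.82. Only the highest TC fish, fish 8, reached the range of PC and of TQ. The difference was -0.73 for TC vs. PC (95% interval -1.26 to -0.19, exact permutation p = 0.0397, adjusted p = 0.0992) and -0.97 for TC vs. TQ (interval -1.50 to -0.44, exact permutation p = 0.0238, adjusted p = 0.0893). Neither passed 0.05 after adjustment over 15 ratio tests. The smallest exact permutation p that 5 fish against 5 can give, 0.00794, would not pass alone after this adjustment. Without TC fish 8 the differences were -0.91 and -1.15, each with an exact permutation p adjusted to 0.0298. With any other fish left out, neither passed 0.05. The adjusted exact permutation p then ran up to 0.159 in TC vs. PC and up to 0.0992 in TC vs. TQ. PC and TQ differed by -0.24 (interval -0.77 to 0.29, exact permutation p = 0.254).

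The ratio of the arms was compared in the same way, where miR-142a-3p may include reads from both precursors. The log2 ratio of miR-142a-3p over miR-142a-5p was -3.94 to -3.26 in TC, -3.55 to -2.80 in PC and -3.15 to -2.57 in TQ. All TC fish were below all TQ fish, and PC overlapped both. The difference of TC vs. TQ was -0.85 (interval -1.24 to -0.45), with an exact permutation p = 0.00794, the smallest that the arrangements of 5 fish against 5 can give, and an adjusted p = 0.0794. Without TC fish 8 it was -0.95 with an exact permutation p adjusted to 0.0298. TC vs. PC gave -0.51 (exact permutation p = 0.0397, adjusted p = 0.0992) and PC vs. TQ gave -0.34 (interval -0.73 to 0.06, exact permutation p = 0.119).

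miR-223 over miR-142a-5p sets the myeloid member against the arm found across leukocytes. Its mean log2 ratio was -3.37 in PC, -3.86 in TC and -2.57 in TQ. The difference was -1.29 for TC vs. TQ (exact permutation p = 0.0159, adjusted p = 0.0794) and -0.80 for PC vs. TQ (exact permutation p = 0.0159, adjusted p = 0.0794), with overlapping ranges and neither past 0.05 after adjustment. Without TC fish 8, TC vs. TQ was -1.51 (exact permutation, adjusted p = 0.0298) and TC vs. PC was -0.71 (exact permutation, adjusted p = 0.0397), against -0.48 with all fish (exact permutation p = 0.103). With any other fish left out, neither passed 0.05. The adjusted exact permutation p then ran up to 0.0992 in TC vs. TQ and up to 0.292 in TC vs. PC. miR-150 over miR-142a-5p, the lymphoid member against the same arm, was -1.95 in PC, -1.71 in TC and -1.39 in TQ on average. Its ranges overlapped in each comparison, and its exact permutation p ran from 0.0952 to 0.325. miR-155 over miR-150 was -4.81 in PC, -5.73 in TC and -4.67 in TQ. The difference was -0.92 for TC vs. PC (exact permutation p = 0.0556) and -1.07 for TC vs. TQ (exact permutation p = 0.0635), with overlapping ranges.

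**Figure D3:**
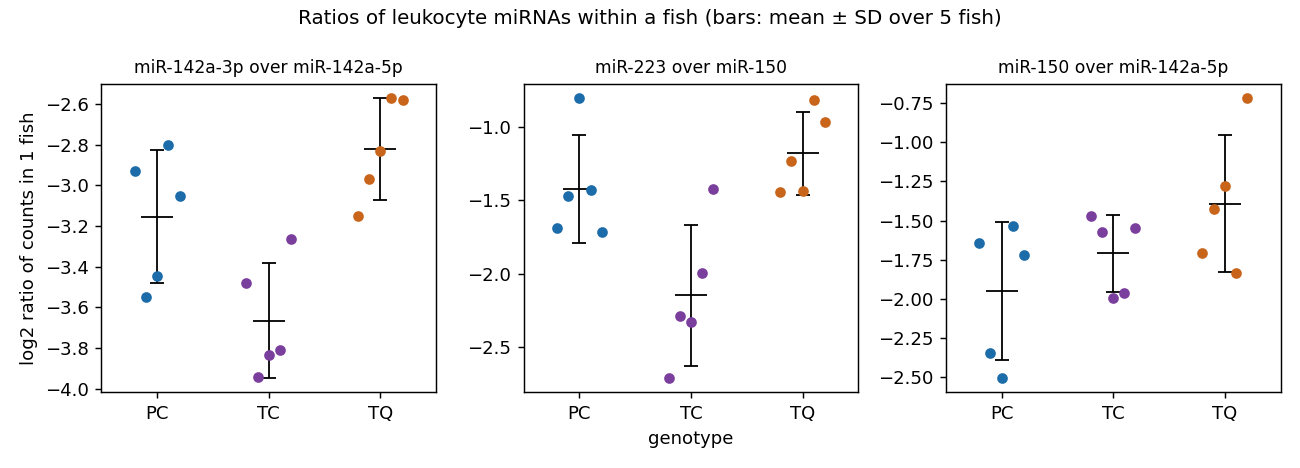
log2 ratio of counts within each fish (y axis) by genotype for miR-142a-3p over miR-142a-5p, miR-223 over miR-150 and miR-150 over miR-142a-5p, a point per fish and bars for mean ± SD over 5 fish. The first ratio lies at -3.94 to -3.26 in TC and -3.15 to -2.57 in TQ without overlap, and the second averages -2.15 in TC.

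Between fish of the same genotype, the members were compared by their deviations in log2 CPM from the genotype mean, over 15 fish and 10 pairs. miR-142a-3p and miR-223 had the highest correlation: r = 0.63 (permutation p = 0.0195, adjusted p = 0.195), rho = 0.49 (permutation p = 0.0811, adjusted p = 0.336), and r = 0.54 without the 2 fish farthest from the median of miR-142a-3p. Without TQ fish 8, r was 0.75 with a permutation p adjusted to 0.0347, and without PC fish 3 it was 0.48 with a permutation p adjusted to 0.402. The lymphoid and myeloid members miR-150 and miR-223 had r = 0.52 (permutation p = 0.0647, adjusted p = 0.209) and rho = 0.48 (permutation p = 0.102, adjusted p = 0.336). This r fell to 0.21 without the 2 fish farthest from the median of miR-150, so it rests on those fish. miR-142a-3p also had r = 0.52 with miR-142a-5p (permutation p = 0.0744, adjusted p = 0.209) and r = 0.53 with miR-150 (permutation p = 0.0835, adjusted p = 0.209). miR-142a-5p and miR-150, the most abundant members, had r = -0.11 (permutation p = 0.742), and the pairs with miR-155 had r from -0.01 to 0.30. PC fish 3, lowest of the PC fish in miR-150, decided several of these values: without it, r was 0.15 for miR-142a-3p and miR-150, 0.28 for miR-150 and miR-223, -0.53 for miR-142a-5p and miR-150, and -0.58 for miR-150 and miR-155. No pair passed 0.05 after adjustment with all fish. Over all 11476 pairs of the 152 mature names the median r was 0.01, with 0.60 at the 95th percentile, and libraries scaled by total counts moved that median to 0.41.

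**Figure D4:**
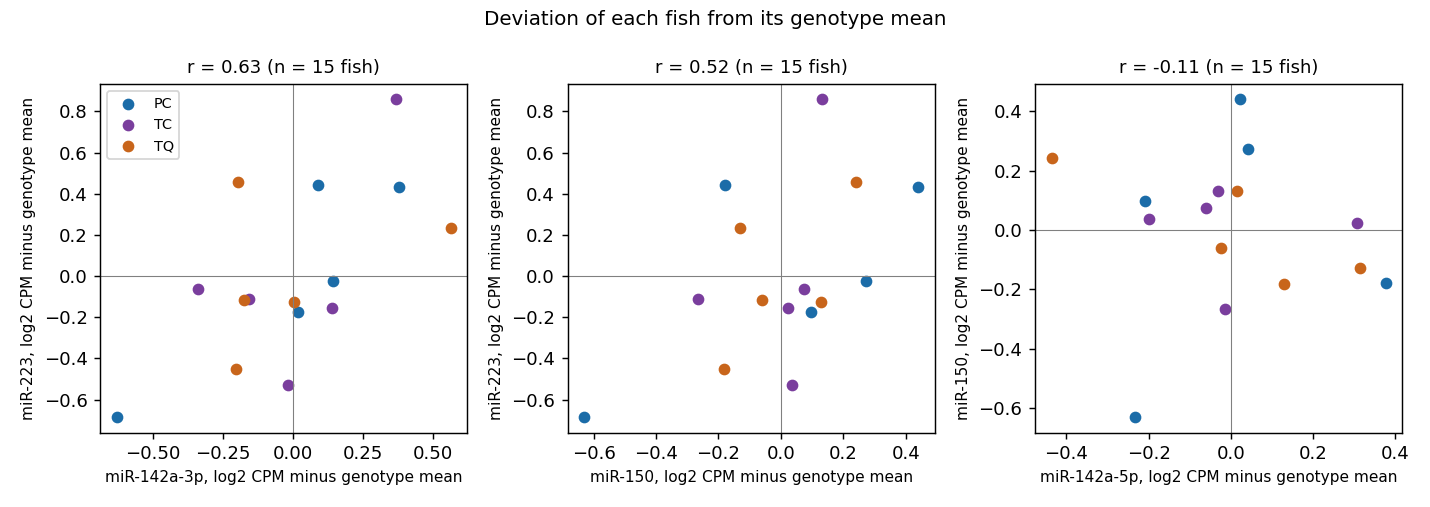
Deviation of each fish from its genotype mean (log2 CPM, both axes) for miR-142a-3p and miR-223 (r = 0.63), miR-150 and miR-223 (r = 0.52) and miR-142a-5p and miR-150 (r = -0.11), a point per fish coloured by genotype, n = 15. PC fish 3 lies lowest on both axes in the first and second panels.

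The fish that stood high in miR-223 and miR-142a-3p were compared with the red cell miRNAs miR-144-3p and miR-451, since fish red cells are nucleated and come with blood. The red cell names summed to 2403 to 3905 CPM in PC, 3754 to 14585 CPM in TC and 1287 to 9215 CPM in TQ. All 3 names of the list were counted, although miR-144-5p had 8 reads in all. TC fish 8, highest of its genotype in miR-223 and miR-142a-3p, had the highest sum at 14585 CPM. TQ fish 6, highest in miR-142a-3p, had 9215 CPM, and TQ fish 8, highest in miR-223, had 7657 CPM, the top values in TQ. PC did not follow this order throughout. PC fish 5, highest of its genotype in miR-142a-3p, had the top sum in PC, 3905 CPM. PC fish 4, highest of its genotype in miR-223, had the lowest, 2403 CPM. PC fish 3, lowest of its genotype in miR-223 and miR-142a-3p, had 3506 CPM. In miR-150, TC fish 8 (181 CPM), TQ fish 8 (219 CPM) and PC fish 5 (138 CPM) were also highest of their genotypes. TQ fish 6 was not, at 169 CPM, and PC fish 3 was again lowest of its genotype. Within genotypes the red cell sum had r = 0.48 with miR-142a-3p (permutation p = 0.0833, adjusted p = 0.243) and r = 0.43 with miR-223 (permutation p = 0.0974, adjusted p = 0.243). It had r = 0.12 with miR-150 (permutation p = 0.575), r = -0.09 with miR-142a-5p (permutation p = 0.804) and r = 0.02 with miR-155 (permutation p = 0.950). By rank, miR-223 and miR-150 were close: rho was 0.28 (permutation p = 0.335) and 0.25 (permutation p = 0.368). The other values of rho were 0.45 for miR-142a-3p (permutation p = 0.113), -0.225 for miR-142a-5p and -0.04 for miR-155. Blood content as a part in the differences between genotypes was not tested. In the comparisons with TQ the red cell miRNAs did not move together. miR-451 was lower in PC than in TQ (log2FC -1.61, edgeR padj = 0.0312), as miR-150 and miR-223 were. Its log2FC in TC vs. TQ was -0.20 (edgeR padj = 0.788). miR-144-3p was higher in TC than in TQ (log2FC 1.48, edgeR padj = 0.0292) and had a log2FC of 0.15 in PC vs. TQ (edgeR padj = 0.863). In TC vs. PC both had a positive log2FC, 1.41 for miR-451 (edgeR padj = 0.0728) and 1.33 for miR-144-3p (edgeR padj = 0.0781). Neither was called there by edgeR, and DESeq2 called both. Some markers of other tissues also differed: both arms of miR-499 and miR-122 were called higher in TC and in PC than in TQ. The slow muscle miRNA miR-499, both arms summed, was at 63.7 to 378 CPM in TQ, 290 to 642 CPM in PC and 297 to 792 CPM in TC. The liver miRNA miR-122 was at 3.42 to 9.44 CPM in TQ, 10.01 to 19.8 CPM in PC and 7.51 to 22.7 CPM in TC. The epidermal names, of which miR-203b-3p was at 0, summed to 35.7 to 167 CPM in TQ, 27.3 to 170 CPM in PC and 26.2 to 107 CPM in TC. Their ranges overlapped, and no epidermal name was called in any comparison. The part of these tissues in the members' differences was not tested.

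Other miRNAs tied to immune cells were taken from a list of 14 names, of which 11 were tested and miR-181b-5p, miR-29b and miR-19b-3p were listed at 0. In TC vs. TQ, 3 of 11 were lower and none higher, beside 6.53% of all loci called lower and 14.6% called in all, and DESeq2 called 4 of 11 without a log2FC prior and 2 of 11 with one. The 3 were miR-29a, a regulator of interferon gamma in mice (log2FC -0.86, edgeR padj = 0.0151), miR-17a-5p (-0.78, edgeR padj = 0.0150) and miR-18a (-0.85, edgeR padj = 0.0292). miR-17a-5p and miR-18a are of the miR-17-92 cluster that supports lymphocyte growth in mice. miR-20a-5p (-0.28, edgeR padj = 0.322) and miR-92a-3p (-0.07, edgeR padj = 0.641), of the same cluster, were not called. Nor were miR-722 (-0.51, edgeR padj = 0.0292, short of the log2FC minimum) and miR-181a-5p (-0.22, edgeR padj = 0.411). The log2FC was positive and not called for miR-146a (0.86, edgeR padj = 0.0601), miR-146b (0.56), miR-21 (0.19) and miR-34a (0.17). In PC vs. TQ, 1 of 11 was called, near the 10.6% of all loci, and it was higher: miR-146b, of the family that dampens Toll-like receptor signalling in mammals (log2FC 1.11, edgeR padj = 0.0346). In TC vs. PC none was called by edgeR or DESeq2, with 3 of 11 at an unadjusted p under 0.05 in edgeR. miR-92a-3p passed the adjusted p there but not the log2FC minimum (-0.42, edgeR padj = 0.0205). The same held for it in PC vs. TQ (0.35, edgeR padj = 0.0434).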

How the data were processed

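Small RNA of fast muscle was sequenced in 15 fish. The authors deposited raw counts per mature miRNA locus. They clipped adapters with Fastx-toolkit, kept reads of 17 to 26 nt, aligned them with Hisat2 to zebrafish precursors of miRBase 22, placed mature sequences with GMAP and counted with featureCounts. For their versions and for reads that match several loci, the sources used here give nothing. The deposited normalized counts of the authors were not used. Reads of a locus on another species' sequence can be lost where the sequence differs.

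Loci whose normalized count averaged 10 or more were tested by edgeR 4.0.16, quasi-likelihood test and TMM scaling (limma 3.58.1, R 4.3.3), all 15 fish in 1 fit, and Benjamini-Hochberg adjustment over 199 loci. Calls needed a log2FC of 0.75 or more in size and an adjusted p of 0.05 or less. Ratios of counts plus 0.5 were compared by two-sided exact permutation tests, adjusted over 15 tests, with intervals from a spread pooled over the genotypes. Correlations used 100000 permutations within genotype and Pearson's r or Spearman's rho, two-sided, adjusted over 10 pairs, and the red cell sum was adjusted over its own 5 relations. Mature sequences were read from the precursors and annotation supplied with the study.

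Named miRNAs were every member, the other arm on their precursors, and the names of the immune-linked and marker lists. The closing section also gives the 3 names most alike each member. The members and lists were chosen with earlier results of these data known. Depth was 2422820 to 5669084 counts per fish, and p-values measure the spread between fish. The alternatives were DESeq2 1.42.0, other scalings, filters, thresholds, pseudocounts, a replicate block and leaving out each fish. Tables and plots were made in Python 3.11.15 with scipy 1.17.1, numpy 2.4.6, matplotlib 3.10.9 and pandas 2.3.3.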

Additional observations from a re-analysis of the deposited data

Results flagged for a closer look

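In 2 of 30 groups of 5 fish, counting levels and log2 ratios, 1 fish lay far from the other 4, its gap to the nearest exceeding 0.71 of the whole range. Chance alone flags about 1 group in 20. miR-142a-3p stood at 101.6 CPM in TQ fish 6, where the other TQ fish held 59.7 to 68.9 CPM, a gap of 0.78 of the range. miR-223 stood at 67.4 CPM in TC fish 8, where the other TC fish held 25.8 to 35.6 CPM, a gap of 0.76 of the range. TC fish 8 also had the lowest total, 2422820 counts, and the highest red cell sum, and the part of either in its miR-223 level was not tested.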

How the results depend on the processing

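Over 4 contrasts, the count of called members was unchanged in 51 of 60 fits without 1 fish (8 higher, 1 lower) and in 35 of 43 other fits (5 higher, 3 lower). It became 1 in TC vs. PC with no log2FC minimum (miR-150), 1 in TC vs. TQ with fish number as a replicate block, and 1 in PC vs. TQ with no minimum mean count or with a log2FC minimum of 1. It became 3 in TC vs. TQ with total counts or with no log2FC minimum, and 3 in PC vs. TQ with 1 locus per mature name or with DESeq2 without a prior. Without 1 fish it ranged from 0 to 1 in TC vs. PC (1 without PC fish 5), 2 to 3 in TC vs. TQ, 1 to 3 in PC vs. TQ (1 without PC fish 3) and 0 to 1 against the parental mean (1 without TC fish 8). Fish numbers did not pair the samples: of 9 pairs with the same number, 4 correlated above 0.1, with r from -0.49 to 0.27. With the replicate block, miR-155 in TC vs. TQ had a log2FC of -1.03 (edgeR padj = 0.0623) and no longer passed. The call of miR-150 in PC vs. TQ was lost with no minimum mean count (log2FC -0.72) and with a log2FC prior in DESeq2 (-0.73), while miR-155 in PC vs. TQ was called by DESeq2 (-0.97, padj = 0.0421). With total counts miR-142a-3p in TC vs. TQ was called (-1.06, edgeR padj = 0.0224), and the mean of miR-150 in TQ was 221 CPM. No result changed sign past its threshold.

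Without 1 fish, the log2 ratio of miR-223 over miR-150 ranged from -0.91 to -0.57 in TC vs. PC and from -1.15 to -0.83 in TC vs. TQ. That of miR-223 over miR-142a-5p ranged from -0.71 to -0.37 in TC vs. PC and from -1.51 to -1.06 in TC vs. TQ, and that of miR-142a-3p over miR-142a-5p from -0.95 to -0.78 in TC vs. TQ. The correlation of miR-150 with miR-223 became 0.59 pooled over genotypes, where genotype means enter (permutation, adjusted p = 0.0444). With total counts it became 0.82 (permutation, adjusted p = 0.00665). That of miR-142a-3p with miR-223 became 0.84 pooled (permutation, adjusted p = 0.0007) and 0.86 with total counts (permutation, adjusted p = 0.00665). With total counts, r over all pairs of mature names had a median of 0.41 and a 95th percentile of 0.838. The 0.82 lay below that percentile and the 0.86 just above it. Over these settings and the DESeq2 scaling, 9 correlations newly passed the adjusted p and 21 did not. The causes were not tested. Depth limits miR-155 most, at 7 to 43 reads per fish.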

Other observations

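For each member, the 3 mature names outside the group with the highest within-genotype r over 15 fish were listed from 147 candidates, as a description with no test. miR-142a-3p was most like miR-15a-5p (r = 0.90), miR-145-5p (0.82) and miR-140-5p (0.75). miR-223 was most like miR-462 (r = 0.80), an interferon-responsive miRNA of teleosts, then miR-15a-5p (0.65) and miR-19d-3p (0.64). miR-142a-5p was most like miR-722 (r = 0.69), a miRNA that lowers neutrophil migration in zebrafish, then miR-101b (0.69) and miR-130a (0.65). miR-150 was most like miR-29a (r = 0.74), miR-193a-3p (0.68) and miR-1388-3p (0.64), and miR-155 was most like miR-727-3p (r = 0.75), miR-727-5p (0.65) and miR-1388-3p (0.59). miR-15a-5p was on the lists of miR-142a-3p and miR-223, and miR-1388-3p on those of miR-150 and miR-155. All names share library and depth, and the highest of 147 values are high by choice.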
